A study of Rattus norvegicus with 34 samples.

Results

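The genes described here make testosterone in the Leydig cells of the testis: the cholesterol carriers Star and Tspo, the enzymes Cyp11a1, Hsd3b1, Cyp17a1 and Hsd17b3, and the electron partners Fdx1, Fdxr, Por and Cyb5a. Members were the probe sets to which the platform annotation gives a single gene symbol from these 10 genes. That rule found 12 probe sets for 9 genes, out of 31042 probe sets tested and 14217 genes with a probe set of 1 symbol. Star, Fdx1 and Por had 2 probe sets each, and no probe set named Fdxr alone, so Fdxr is given no value. The rule itself uses no measured value.

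Testosterone is made from cholesterol. Star, with Tspo in the outer mitochondrial membrane as a cholesterol-binding protein, is placed at the step that brings cholesterol into the mitochondrion. There Cyp11a1 cuts its side chain to give pregnenolone, drawing electrons from NADPH through ferredoxin reductase (Fdxr) and ferredoxin (Fdx1). The 3-beta-hydroxysteroid dehydrogenases, Cyp17a1 and Hsd17b3 then act in the endoplasmic reticulum, where Por feeds electrons to Cyp17a1 and cytochrome b5 (Cyb5a) favours its lyase reaction. Triazole fungicides are built to block a fungal sterol P450 enzyme and can bind mammalian P450 enzymes as well, Cyp11a1 and Cyp17a1 belonging to that class.

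Each array measured whole-testis RNA of 1 adult male Wistar Han rat on the Affymetrix rat genome array. Exposure was through the feed, beginning on gestation day 6 and ending on postnatal day 92, when the testis was taken. Control rats (0 ppm) gave 6 arrays. Myclobutanil gave 3 arrays at 500 ppm (M500) and 5 at 2000 ppm (M2000), propiconazole 4 at 500 ppm (P500) and 5 at 2500 ppm (P2500), and triadimefon 4 at 500 ppm (T500) and 4 at 1800 ppm (T1800). Of 34 labelled samples, 3 without values (Control 01, M500 03 and T1800 01) were not analysed here. No source used here gives the litters, and littermates would not be independent samples. The high doses differ between compounds, so compounds were compared only at 500 ppm.

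All levels below are quantile-normalized scores, a log-like scale on which the middle probe set of an array lies near 0. The base of the logarithm is not known, so differences are in score units and are no folds, and no probe set's level is set against another's. The arrays carry the testis's own transcripts. All 6 spermatid markers measured (such as Prm1 and Tnp1) were above bioB, the weakest hybridisation control, in all 31 arrays. Of the 5 Leydig markers measured, Hsd11b1 was above it in 30 arrays and Insl3 in 25. The others, Lhcgr, Scarb1 and Nr5a1, were above it in 0. Cyp11b1 and Cyp21a1, which define adrenal cortex, were below 0 in every array. In whole tissue, fewer Leydig cells and less RNA per Leydig cell cannot be told apart.

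Several arrays stood apart. In 5 arrays the actin gap, the score of the 3' minus the 5' beta-actin control and a measure of RNA integrity, was above 1.4 (Control 02 and 06, M500 04, M2000 05 and P2500 05). P2500 replicates 02, 03 and 04 carried liver transcripts: albumin (Alb) scored 3.89 to 4.15 there, and the summed score of the 10 liver markers was 15.0 to 15.4 against -1.52 to 2.67 in the other 28 arrays. Of the 2 epididymis markers measured, Adam7 scored 0.555 to 0.639 there, though it was above bioB in 0 arrays. The other, Defb22, scored -0.189 to -0.0948 there, within its range of -0.226 to -0.0723 over all arrays. Control 05 to 07 and T1800 03 to 05 have later animal numbers than all other arrays. Orderings and overlaps of arrays given below are on the quantile-normalized scale unless said otherwise.

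No member passed the threshold, an adjusted p under 0.05 (limma, Benjamini-Hochberg over all 31042 probe sets), in any of the 12 comparisons. The background was as low: the share of all probe sets called was 0.00644% in T1800 against control, 0.00322% in T1800 against T500 and 0% in the other 10. At an unadjusted p under 0.05, 5 of 12 member probe sets were past it in P2500 against control, where 4.15% of all probe sets were. Without the 3 arrays carrying liver transcripts 0 of 12 were past it there, and 3.82% of all. On the scores as deposited 3 of 12 were, and 2.92% of all. The other counts were 2 in M500 (9.00% of all), 0 in M2000 (1.70%), 0 in P500 (3.36%), 2 in T500 (7.62%) and 3 in T1800 (5.84%). All 12 of these differences were towards higher scores in the exposed group. The median difference with control over the 12 members was 0.150 in P2500, 0.0974 in T1800, 0.0908 in M500 and 0.0852 in T500, while the median over all probe sets was between -0.00358 and 0.000708 in all 6 exposed groups. These medians moved with the processing. That of P2500 was 0.0449 without the arrays carrying liver transcripts and 0.0702 on the scores as deposited. That of M500 was 0.180 on the scores as deposited, where the median over all probe sets was 0.0335. Those of T500 and T1800 were 0.0347 and 0.0523 without the 5 arrays of large actin gap. Members were higher than control in 10 of 12 probe sets in M500, P2500 and T1800 and 11 of 12 in T500. Without the arrays of large gap the count was 7 of 12 in T500 and 8 of 12 in P2500, and with the gap as a covariate 7 of 12 in T500 and 8 of 12 in T1800. In M2000 they were higher in 8 of 12, but in 3 of 12 on the scores as deposited and 4 of 12 after centring and scaling each array, and in P500 in 6 of 12 (5 of 12 under either). The 6 comparisons share the same control arrays.

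**Figure D1:**
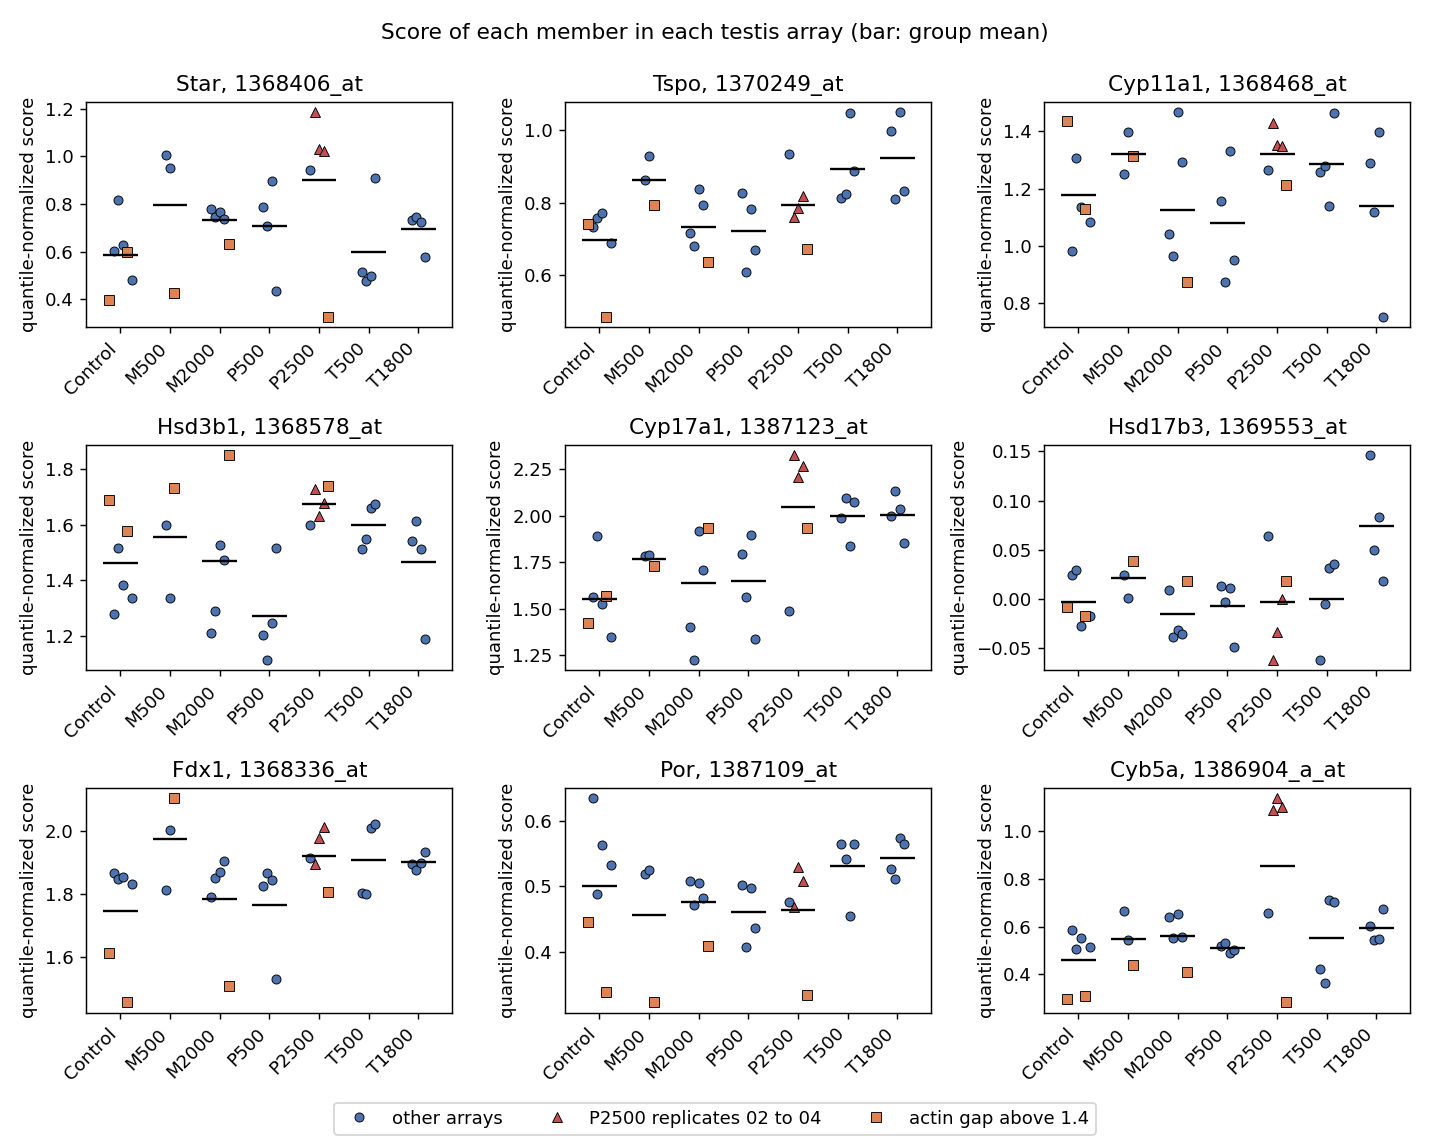
Quantile-normalized score (y axis) of each of the 9 measured genes, by its probe set of highest mean, in each of 31 arrays by group (x axis). Points are arrays, bars are group means, triangles are P2500 replicates 02 to 04 and squares are arrays with an actin gap above 1.4. All arrays of T500, T1800 and M500 lie above every control in Tspo, and the triangles lie above all other arrays in Star, Cyp17a1 and Cyb5a; on the scores as deposited only the Cyb5a ordering held.

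Cholesterol enters the pathway through Star, a carrier whose amount limits acute steroid output. Its probe set of highest mean, 1368406_at, scored 0.398, 0.602 and 0.818 as the lowest, median and highest of 6 controls. In P2500 it scored 0.941, 1.19, 1.03, 1.02 and 0.327. The P2500 values are thus above all controls in 4 of 5 arrays and below all of them in replicate 05, whose actin gap was 1.47. The difference of 0.313 ± 0.119 (SE) had an unadjusted p of 0.0143 and an adjusted p of 0.772 in limma. Without the 3 arrays carrying liver transcripts it was 0.0455 ± 0.148 (SE), with a 95% interval from -0.261 to 0.352. That fit keeps only replicates 01 (0.941) and 05 (0.327), the latter with the large actin gap.

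In the other groups Star overlapped control, with SDs from 0.0587 in M2000 (n = 5) to 0.319 in M500 (n = 3) beside 0.144 in control (n = 6). M500 scored 1.01, 0.951 and 0.428, and M2000 0.779, 0.747, 0.765, 0.736 and 0.631. P500 scored 0.789, 0.708, 0.896 and 0.437. The lowest arrays of M500 and M2000 are again those with a large actin gap. T500 scored 0.513, 0.476, 0.498 and 0.909, and T1800 0.735, 0.745, 0.726 and 0.580. In T500, 1 rat stood clear of the other 3, as it did on the second Star probe set, 1387174_a_at (0.666 against 0.326 to 0.359). Group means ran from 0.589 in control to 0.901 in P2500, and no step between neighbours in that order was larger than the larger SD of the pair.

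Tspo, a cholesterol-binding protein of the outer mitochondrial membrane, was the member whose exposed arrays separated most often from control. The 6 controls scored 0.485, 0.737 and 0.770 (lowest, median, highest). M500 scored 0.863, 0.928 and 0.794, T500 scored 0.811, 0.823, 1.05 and 0.886, and T1800 scored 0.997, 0.810, 1.05 and 0.833. Every array of these 3 groups lies above every control array, with the lowest of them (0.794) not far above the highest control. On the scores as deposited they overlap: Control 02 scored 0.955 there, above all T500 arrays (0.789 to 0.927) and above 2 of the 3 M500 and 2 of the 4 T1800 arrays.

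The differences in Tspo were 0.166 ± 0.0677 (SE) in M500, 0.196 ± 0.0618 in T500 and 0.227 ± 0.0618 in T1800, with adjusted p-values in limma of 0.441, 0.521 and 0.529. Over all probe sets, every array of the group lay above every control in 1.12% in M500, 0.731% in T500 and 1.13% in T1800. In M2000 (0.0870%), P500 (0.441%) and P2500 (0.113%) no member did so. The control at 0.485 is replicate 06, with an actin gap of 1.63. Without the 5 arrays of large gap the differences were 0.159 in M500, 0.155 in T500 and 0.185 in T1800. Against controls of the later animal numbers alone, the T1800 difference was 0.249 ± 0.0940 (SE, 3 arrays against 3, adjusted p = 0.817 in limma).

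M2000 and P500 overlapped control in Tspo, with means of 0.733 ± 0.0826 (SD, n = 5) and 0.721 ± 0.100 (SD, n = 4) beside 0.696 ± 0.107 (SD, n = 6) in control. P2500 had a mean of 0.793 ± 0.0956 (SD, n = 5). Macrophages also express Tspo. Of the 8 macrophage markers, 4 (C1qa, Cd74, Lyz2 and Cd68) were past an unadjusted p of 0.05 towards higher scores in T1800, 1 in T500 (Lyz2, with Cd163 lower) and 0 in M500. Their summed score was 3.68 to 4.36 in T1800, 3.21 to 4.21 in T500 and 3.16 to 3.61 in M500, against 3.01 to 3.85 in control. Cd68 (-0.126 to 0.0881) and Cd163 (-0.206 to 0.138) scored near the middle of the arrays throughout. Their part in the Tspo values was not tested.

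Cyp11a1 starts the steroid path by cutting the cholesterol side chain. Controls scored 0.982, 1.13 and 1.44 (lowest, median, highest). M500 scored 1.25, 1.398 and 1.31, M2000 scored 1.04, 0.964, 1.47, 1.29 and 0.873, and P500 scored 1.16, 0.876, 1.33 and 0.952. All of these overlap control.

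P2500 scored 1.26, 1.43, 1.35, 1.35 and 1.21, T500 scored 1.26, 1.28, 1.14 and 1.46, and T1800 scored 1.29, 1.12, 1.397 and 0.753. The widest group was T1800, whose replicate 05 was the lowest of all arrays. No comparison of Cyp11a1 reached an unadjusted p of 0.05, and the 95% intervals of the 6 differences with control lay between -0.335 and 0.400.

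Hsd3b1 stands for the 3-beta-hydroxysteroid dehydrogenases, which turn pregnenolone into progesterone. The annotation names Hsd3b1 for 1368578_at, but the accession the probe set was designed on is listed under Hsd3b2 in the current RefSeq gene table, so which family member it measures is uncertain. The probe set shared by Hsd3b1, Hsd3b2 and Hsd3b3 scored -0.328 to -0.222 and gave no separate reading.

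Controls scored 1.28, 1.45 and 1.69 on 1368578_at (lowest, median, highest). P500 scored 1.20, 1.11, 1.24 and 1.52, and P2500 scored 1.60, 1.73, 1.63, 1.68 and 1.74. All P2500 arrays lie above all P500 arrays, while both groups overlap control, P500 on its low side. On the scores as deposited the P2500 and P500 arrays overlap. On that scale every P2500 array lay above every P500 array in 0.506% of all probe sets. The share on the quantile-normalized scale was not counted.

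The difference between the propiconazole doses was 0.405 ± 0.108 (SE; unadjusted p = 0.000885, adjusted p = 0.165 in limma), the smallest unadjusted p of any member in any comparison. Unlike Cyb5a and Cyp17a1 it was about as large without the 3 arrays carrying liver transcripts, at 0.399 with 2 P2500 arrays left. Of these 2, replicate 05 has a large actin gap (1.47) and the highest P2500 score (1.74). No fit left out both kinds of array. The difference between the doses was past the threshold without the arrays of large actin gap (0.389, adjusted p = 0.0230 in limma). It was also past it in a fit with the gap as covariate (0.449, adjusted p = 0.0285). Against control, P2500 differed by 0.211 ± 0.0977 (SE) and P500 by -0.194 ± 0.104 (SE), with 95% intervals of 0.0109 to 0.412 and -0.407 to 0.0202. This probe set itself scored high in the arrays of large gap, 1.58 to 1.85 against 1.11 to 1.73 in the other 26.

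The remaining groups stayed within or near the controls' range in Hsd3b1. M500 scored 1.60, 1.34 and 1.73, and M2000 1.21, 1.29, 1.53, 1.47 and 1.85. T500 scored 1.51, 1.55, 1.66 and 1.67, and T1800 1.54, 1.61, 1.51 and 1.19. The highest array of M500 and of M2000 is the one with a large actin gap.

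Cyp17a1 carries out the 17-alpha-hydroxylase and lyase steps that commit the path to androgens, and it had the largest differences with control among the members. Controls scored 1.35, 1.54 and 1.89 (lowest, median, highest). T500 scored 1.99, 2.10, 1.84 and 2.08, and T1800 scored 2.00, 2.13, 2.03 and 1.85. In each triadimefon group 3 of 4 arrays lie above every control and the fourth lies just below the highest control, replicate 04.

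The difference was 0.447 ± 0.144 (SE) in T500 and 0.453 ± 0.144 in T1800, with adjusted p-values of 0.550 and 0.735 in limma. The triadimefon doses differed from each other by 0.00517, with a 95% interval from -0.320 to 0.330. Against the later-numbered controls alone the T1800 difference was 0.527 ± 0.0884 (SE, 3 arrays against 3, adjusted p = 0.817). No triadimefon array had a large actin gap, and without such arrays elsewhere the differences were 0.418 in T500 and 0.424 in T1800. Of the 5 Leydig markers measured, Insl3, a peptide hormone, was also past an unadjusted p of 0.05 and higher in both triadimefon groups. Hsd11b1 was past it and higher in T500 but not in T1800, and likewise higher in M500, P500 and P2500. The median difference of the 5 markers with control was 0.0101 in T500 and 0.110 in T1800. The summed score of the 5 Leydig markers was 3.77 to 4.37 in T500 and 3.74 to 4.49 in T1800, against 2.64 to 4.05 in control. Their part in the Cyp17a1 difference was not tested.

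P2500 scored 1.49, 2.33, 2.21, 2.27 and 1.93 in Cyp17a1. The 3 arrays with liver transcripts are the highest of all 31, and replicate 01 lies inside the controls' range. The difference with control was 0.493 ± 0.135 (SE; unadjusted p = 0.00115, adjusted p = 0.162 in limma), and without those arrays it was 0.159 with a 95% interval from -0.180 to 0.497. Only replicates 01 (1.49) and 05 (1.93) were left in P2500 there. Whether the liver transcripts and the Cyp17a1 scores have a common source was not tested.

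The myclobutanil groups and P500 overlapped control in Cyp17a1. M500 scored 1.78, 1.79 and 1.73, M2000 scored 1.402, 1.22, 1.92, 1.71 and 1.94, and P500 scored 1.79, 1.56, 1.90 and 1.34. On this quantile-normalized scale M500 was the tightest group, with an SD of 0.0335 (n = 3). On the scores as deposited it was not tight, at 1.94, 1.79 and 2.42. M2000 held the lowest array of all 31 (1.22).

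Hsd17b3, which reduces androstenedione to testosterone, scored near the middle of the array and below bioB in all 31 arrays, so its probe set gives a weak reading. Controls scored -0.0279, -0.0126 and 0.0291 (lowest, median, highest). T1800 scored 0.146, 0.05003, 0.0831 and 0.0185. Of these, 3 arrays are above every control.

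The Hsd17b3 difference in T1800 was 0.0773 ± 0.0250 (SE; unadjusted p = 0.00464, adjusted p = 0.743 in limma), and between the triadimefon doses 0.0742 ± 0.0274 (adjusted p = 1.0). Without T1800 replicate 02, which scored 0.146, the difference with control was 0.0534. In the other 5 exposed groups the scores ran from -0.0617 to 0.0645, and both ends of that range were P2500 arrays.

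Fdx1 passes electrons to Cyp11a1 and other mitochondrial P450 enzymes. On 1368336_at, its probe set of highest mean, controls scored 1.45, 1.84 and 1.86 (lowest, median, highest). T1800 scored 1.89, 1.88, 1.90 and 1.93, just above every control. On the scores as deposited Control 02 is at 2.17, above all 4 T1800 arrays (1.76 to 1.91). M500 scored 1.81, 2.00 and 2.10, and P2500 scored 1.91, 1.89, 1.98, 2.01 and 1.80. Apart from M500 04, the arrays of large actin gap scored from 1.45 to 1.80 here.

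The Fdx1 difference was 0.229 ± 0.0918 (SE; adjusted p = 0.426 in limma) in M500, 0.177 ± 0.0786 in P2500 (adjusted p = 1.0) and 0.156 ± 0.0838 in T1800. Both controls of large gap, 02 and 06, were the lowest controls at 1.61 and 1.45. Without the 5 arrays of large gap the differences were 0.0578 in M500, 0.100 in P2500 and 0.0507 in T1800. The second Fdx1 probe set, 1389827_at, did not follow the first. Its differences with control were 0.0898 in M500, -0.0194 in P2500, -0.0273 in T500 and -0.0545 in T1800. On 1368336_at M2000 scored 1.79, 1.85, 1.87, 1.90 and 1.51, P500 1.83, 1.86, 1.84 and 1.53, and T500 1.80, 1.80, 2.01 and 2.02. The lowest array in M2000 was replicate 05, with a gap of 1.47, and in P500 replicate 04, with a gap of 1.33, the highest among arrays below the limit.

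Por is the reductase of the microsomal P450 enzymes, Cyp17a1 among them. On 1387109_at controls scored 0.339, 0.510 and 0.635 (lowest, median, highest), and the exposed arrays scored from 0.323 to 0.574. With all arrays no Por comparison reached an unadjusted p of 0.05 on either probe set. The 95% intervals of the 6 differences with control lay between -0.147 and 0.137 on 1387109_at and between -0.218 and 0.233 on 1368213_at. Without the 5 arrays of large actin gap the difference of P500 with control in Por was -0.115 on 1368213_at (adjusted p = 0.0811 in limma) and -0.0935 on 1387109_at (adjusted p = 0.0904), against -0.0220 and -0.0393 with all arrays. In that fit 20.6% of all probe sets were past an unadjusted p of 0.05 in P500 against control. The differences of P500 with T500 there were -0.103 and -0.0701 (adjusted p = 0.0912 and 0.173 in limma). Both probe sets scored below bioB in every array.

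Cyb5a, cytochrome b5, is made in many tissues and in much higher amounts in liver. Controls scored 0.296, 0.512 and 0.588 (lowest, median, highest). P2500 scored 0.657, 1.09, 1.14, 1.10 and 0.283. Replicates 02 to 04, the arrays with liver transcripts, lie far above the 0.283 to 0.714 of the other 28 arrays, and replicate 05 is the lowest of all.

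Against control the Cyb5a difference in P2500 was 0.392 ± 0.107 (SE; unadjusted p = 0.00105, adjusted p = 0.152 in limma). Without the 3 arrays it was 0.00822, with a 95% interval from -0.192 to 0.209. That fit keeps only replicate 01 (0.657, above every control) and replicate 05 (0.283), whose actin gap was 1.47. Arrays of large gap scored 0.283 to 0.439 on this probe set. Between the propiconazole doses it was 0.343 ± 0.118, and -0.0404 ± 0.103 without them. Replicates 02 to 04 were above every other array in 3 of the 12 member probe sets, Cyb5a, Cyp17a1 and Star 1368406_at, and in 1.12% of all probe sets. On the scores as deposited this held for Cyb5a alone among the members, at 1.01 to 1.04, and for 0.902% of all probe sets. Outside P2500 the exposed groups overlapped control: M500 scored 0.665, 0.546 and 0.439, M2000 0.411 to 0.655, P500 0.488 to 0.534, T500 0.362 to 0.714 and T1800 0.543 to 0.676.

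**Figure D2:**
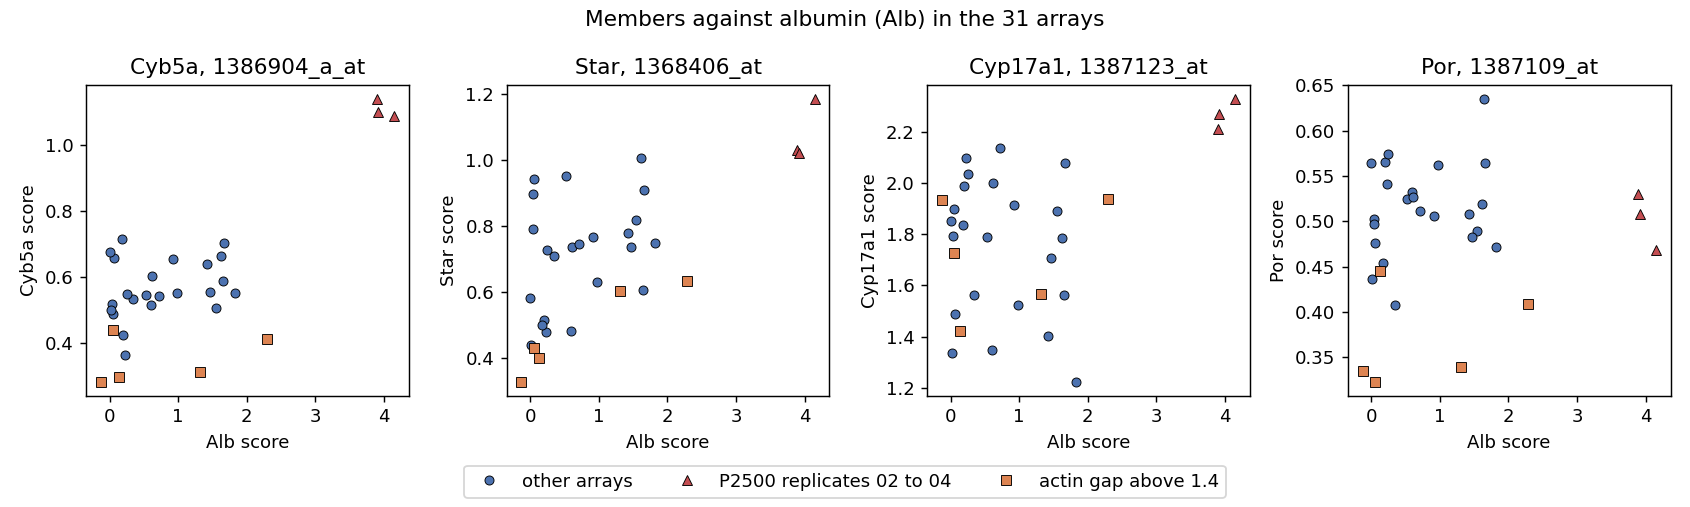
Score of Cyb5a, Star, Cyp17a1 and Por (y axes, probe set of highest mean) against the Alb score (x axis) in 31 arrays, with triangles for P2500 replicates 02 to 04 and squares for actin gaps above 1.4. The triangles, at Alb scores of 3.89 to 4.15, are the highest arrays in Cyb5a, Star and Cyp17a1 on this quantile-normalized scale (on the scores as deposited, in Cyb5a alone of these 3) and lie within the other arrays in Por.

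The 2 probe sets of Star and of Por each had lower medians in the arrays of large actin gap, while the 2 of Fdx1 went opposite ways. The arrays of large gap and the other 26 did not overlap at all on 3 of the 12 member probe sets, and on 8.91% of all probe sets (on the scores as deposited on the same 3 members and on 8.14%). Star 1387174_a_at scored 0.0259 to 0.272 in the former and 0.326 to 0.690 in the latter, Por 1368213_at -0.209 to -0.0202 and 0.0428 to 0.263, and Fdx1 1389827_at 0.111 to 0.370 and -0.278 to 0.0633. Star and Por were thus lower in arrays of large gap and Fdx1 1389827_at was higher, while 4 of those 5 arrays lay below the median of the other 26 (1.87) on Fdx1 1368336_at. The gap had a mean of 1.12 in control and of 0.790 in T500 and 0.852 in T1800. Differences with control in fits without those arrays are given above for Tspo, Cyp17a1, Fdx1 1368336_at and Por.

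**Figure D3:**
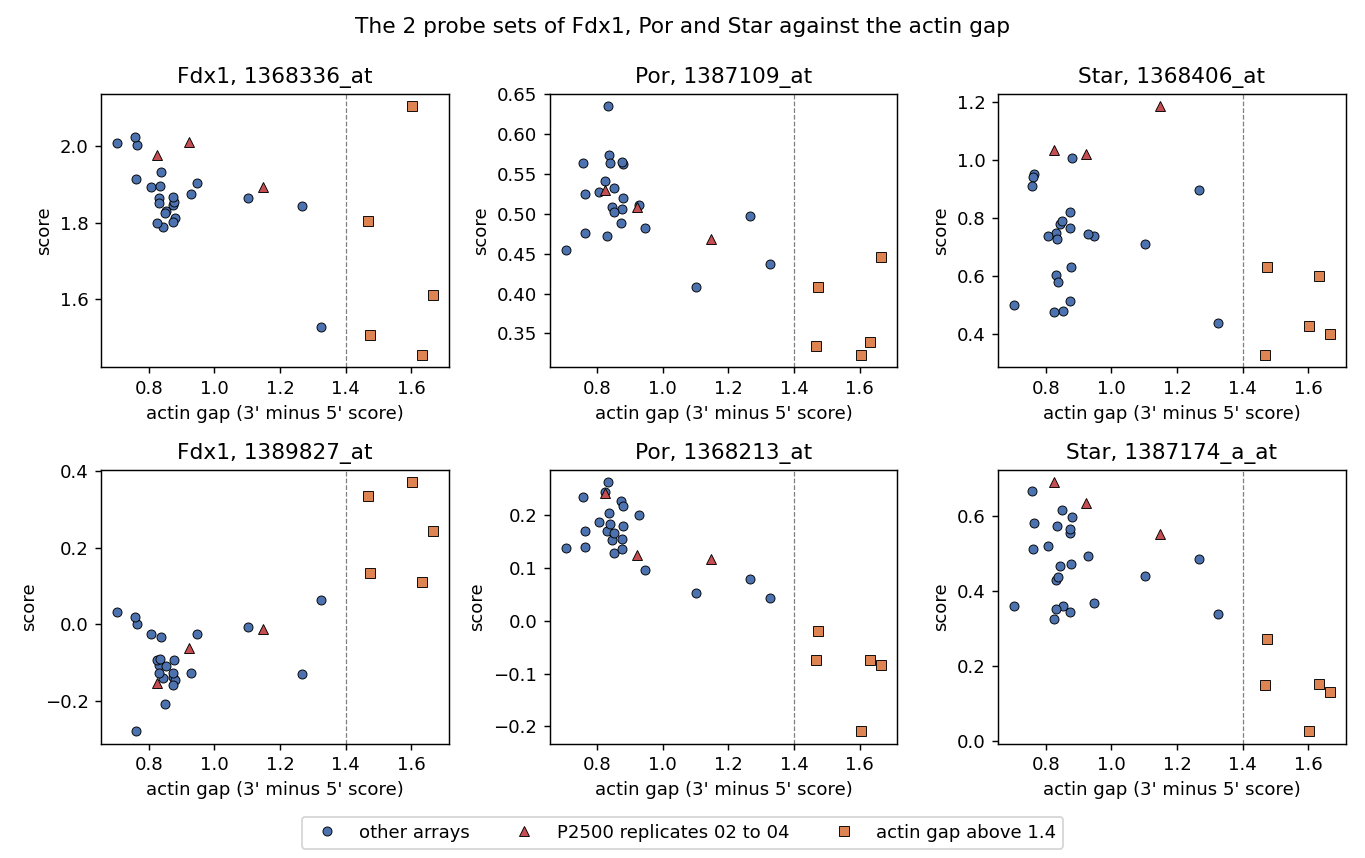
Score (y axes) of both probe sets of Fdx1, Por and Star against the actin gap (x axis) in 31 arrays, with the limit of 1.4 as a dashed line. In the lower row, the 5 arrays past the line lie wholly above the others for Fdx1 1389827_at and wholly below them for Por 1368213_at and Star 1387174_a_at.

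The 3 compounds share a triazole ring: myclobutanil has a nitrile group, propiconazole a dioxolane ring and triadimefon a ketone. At the matched dose of 500 ppm 3 pairs were compared. Past an unadjusted p of 0.05 were 2 of 12 member probe sets between M500 and P500 (7.48% of all probe sets), 0 between M500 and T500 (6.69%) and 3 between P500 and T500 (5.08%). P500 was below T500 by 0.330 ± 0.114 (SE) in Hsd3b1, by 0.171 ± 0.0677 in Tspo and by 0.352 ± 0.158 in Cyp17a1, each with an adjusted p of 0.888 in limma. M500 was above P500 by 0.285 ± 0.123 in Hsd3b1 (adjusted p = 0.615) and by 0.207 ± 0.0991 in Fdx1 1368336_at (adjusted p = 0.658).

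These pairs therefore showed no called difference in any member, and their intervals leave room for sizeable ones. Between M500 and T500 the difference in Cyp17a1 was -0.233 with a 95% interval from -0.584 to 0.117, and in Tspo -0.0302 with an interval from -0.180 to 0.120. Between M500 and P500 the interval for Cyp17a1 ran from -0.232 to 0.469. Members were higher in P500 than in T500 in 2 of 12 probe sets, with a median difference of -0.0867.

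Within a compound, the doses differed past an unadjusted p of 0.05 in 0 of 12 member probe sets for myclobutanil (7.55% of all probe sets), 3 for propiconazole (3.83%) and 1 for triadimefon (1.97%). The propiconazole members were Hsd3b1, Cyb5a and Cyp17a1, and for triadimefon it was Hsd17b3. For myclobutanil the count was 5 of 12 on the scores as deposited and after centring and scaling, where 20.3% and 15.3% of all probe sets were past it. All 12 probe sets were higher in P2500 than in P500, and 11 of 12 on the scores as deposited and after centring and scaling. Without the arrays carrying liver transcripts 7 of 12 were higher, with a median difference of 0.0557 against 0.114 with them. For the last 2 propiconazole members the difference was smaller without the arrays with liver transcripts: Cyp17a1 differed by 0.398 ± 0.150 (SE) with them and by 0.0630 without them. Those fits keep only P2500 replicates 01 and 05, and 05 has a large actin gap (1.47). The part of the gap and that of the liver transcripts were therefore not separated.

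**Figure D4:**
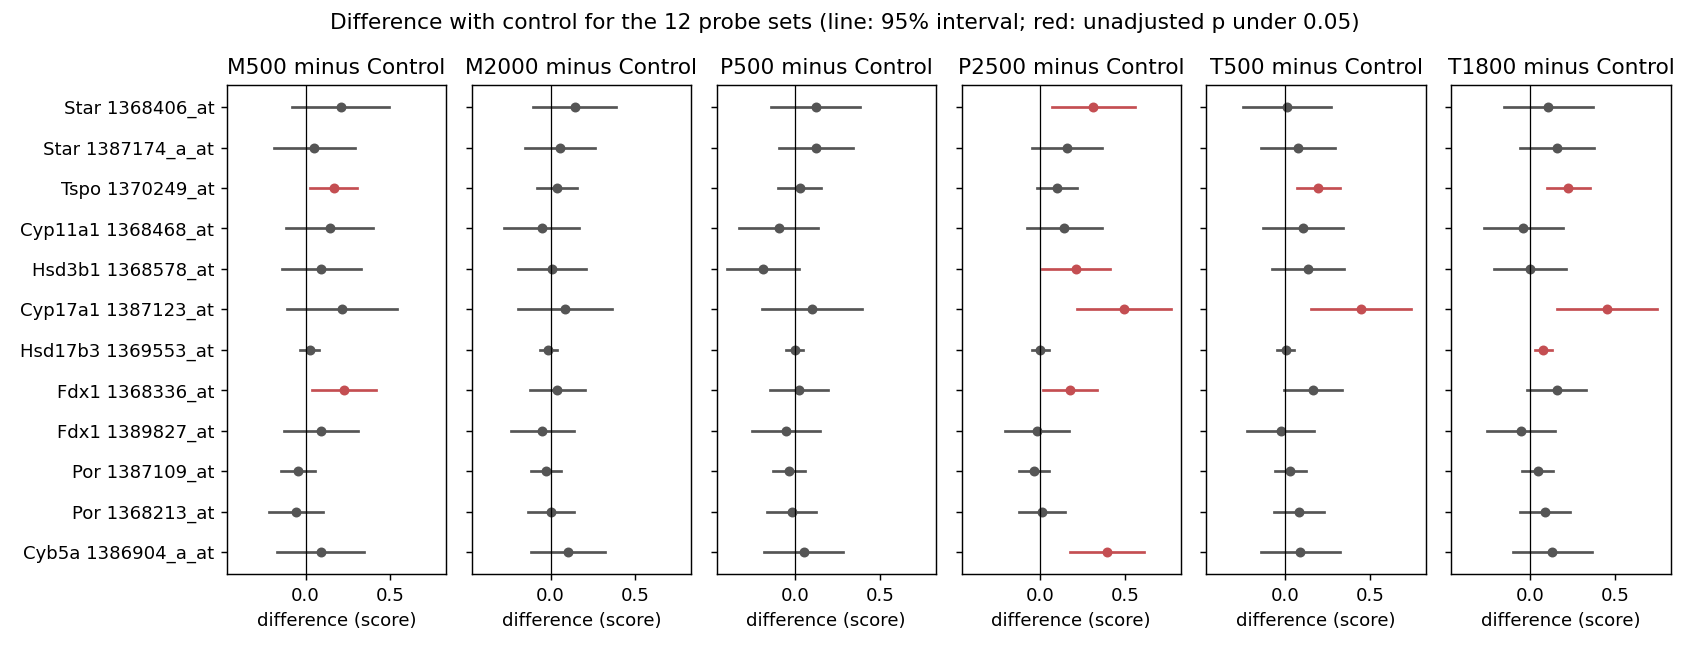
Difference of each exposed group with control in score units (x axes) for the 12 member probe sets (y axis). Points are limma estimates, lines their 95% intervals, and red marks an unadjusted p under 0.05. Cyp17a1 lies between 0.447 and 0.493 in T500, T1800 and P2500, while no red point appears in M2000 or P500.

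The other genes of the pathway gave no call either. Of 10 measured genes of cholesterol supply, 14 of later and side steps of steroid metabolism, 9 of electron supply and 12 of signal and transcription, 0 passed the threshold in any comparison. At an unadjusted p of 0.05 the later and side steps had 7 of 14 higher and 1 lower in P2500 against control, with a median difference of 0.0861. Among them are Sult1e1, which sulphates estrogen, Hsd3b5, a liver form of the dehydrogenase, and Akr1c14, which reduces dihydrotestosterone. This group holds the 3 arrays with liver transcripts. In this comparison 9 of the 10 liver markers and 4.15% of all probe sets were also past it. Whether the differences of these list genes rest on those arrays was not tested. Elsewhere at most 2 genes of a list were past it in 1 comparison with control. Insl3, higher in T500 and T1800, was the only one of the 12 signal and transcription genes past it in those groups. Stard5, a sterol-binding relative of Star, was the only cholesterol supply gene past it in M500, M2000 and P2500. Cyb5b, Cyb5r2 and Cyb5r3 of the cytochrome b5 system accounted for all those past it in electron supply.

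Across the 31 arrays, which share the groups and the RNA quality differences above, the members did not move as 1 block. The highest Pearson correlations between members were Star with Cyb5a at 0.734, Fdx1 with Tspo at 0.631 and Hsd17b3 with Tspo at 0.538, and Hsd3b1 with Por was the lowest at -0.374. Outside the members, Cyb5a was most like Proc (r = 0.929), Pecr (0.911) and Gulo (0.908), and over the 28 arrays without liver transcripts these were 0.751, 0.678 and 0.760. Proc encodes protein C and Gulo the last enzyme of vitamin C synthesis, both made in liver. Star was most like Alas1 (0.775), Ass1 (0.742) and Proc (0.741), at 0.657, 0.685 and 0.646 over the same 28 arrays. Cyp17a1 was most like Pon3 (0.734), Serpinf1 (0.718) and Cmbl (0.713), at 0.598, 0.629 and 0.555 over them.

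The remaining members had other neighbours. Tspo was most like Tst (0.892), Mgst2 (0.883) and Fabp3 (0.873), Fdx1 most like Tbca (0.909), Pam16 (0.903) and Fabp9 (0.898), and Por most like Atg101 (0.896), Unc119 (0.888) and Yif1a (0.886). Cyp11a1 was most like Hsd17b2 (0.652), Prlr (0.635), the prolactin receptor, and Dcaf11 (0.567). Hsd3b1 was most like Ifgga2l1 (0.735), Ptprd (0.712) and Fads1 (0.703), and Hsd17b3 most like Dipk1c (0.693), Nrcam (0.644) and Psmb8 (0.642).

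The promoters of Cyp11a1 and of its electron donor Fdx1 are shown because the pair work in 1 reaction, and the nuclear receptor NR5A1 is a known regulator of steroid enzyme genes. They run from 250 bases before to 50 after the start site, in RefSeq's GRCr8 build. Cyp11a1 lies at chr8:67318415-67318714 on the plus strand and Fdx1 at chr8:61183596-61183895 on the minus strand.
Cyp11a1: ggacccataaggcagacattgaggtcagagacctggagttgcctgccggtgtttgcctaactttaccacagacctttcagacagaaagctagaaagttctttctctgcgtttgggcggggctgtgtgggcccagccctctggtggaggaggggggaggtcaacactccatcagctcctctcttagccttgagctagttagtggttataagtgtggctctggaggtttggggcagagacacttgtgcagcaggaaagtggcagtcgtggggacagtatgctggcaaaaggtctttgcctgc
Fdx1: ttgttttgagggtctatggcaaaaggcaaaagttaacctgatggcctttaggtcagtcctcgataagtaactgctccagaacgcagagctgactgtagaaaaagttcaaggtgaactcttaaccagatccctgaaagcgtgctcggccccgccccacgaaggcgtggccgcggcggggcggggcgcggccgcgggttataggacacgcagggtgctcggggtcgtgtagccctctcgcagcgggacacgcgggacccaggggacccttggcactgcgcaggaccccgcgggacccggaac
The NR5A1 core AAGGTCA, searched on both strands (TGACCTT on the other), was in 0 of the 7 member promoters with an entry (Cyp11a1, Hsd3b1, Hsd17b3, Fdx1, Fdxr, Por and Cyb5a) and in 1543 of 33469 promoters of this length (4.61%). These exact letters are thus not in these windows. With a share of 4.61% over all promoters, 0 of 7 does not set the members apart. Other forms of the site were not searched. Star, Cyp17a1 and Tspo had no entry.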

How the data were processed

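Per the labels' protocols, testis RNA was cleaned with DNase and columns, tested for integrity, reverse transcribed with oligo-dT and hybridised as biotin-labelled cRNA. The deposited values are log-like scores for each probe set, with array medians of -0.00914 to 0.0558. Their summarisation, background correction and normalization are steps not given in the sources used here.

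Deposited scores were quantile normalized and fitted with limma 3.58.1 in R 4.3.3 as 1 linear model with a mean per group over 31 arrays (lmFit, eBayes), with 57 control probe sets left out, and 12 contrasts were taken. Benjamini-Hochberg adjustment ran over 31042 probe sets, of which 436 have several symbols and 9780 none. The steps were tested on simulated data. The members, gene lists and settings were chosen with earlier results of these data known. All members were named with every probe set, and their values per array come from the probe set of highest mean. Other genes were named by the smallest p in their list or by Pearson correlation with a member over arrays. The alternatives were other scalings, array weights, a trended prior, only the groups compared, only probe sets above the median mean, a replicate or animal series block, the actin gap as a covariate, and arrays left out. The number of arrays limits the precision: standard errors of differences with control had medians of 0.0327 to 0.0382 over all probe sets. Among the members they ran from 0.0235 (Hsd17b3 in M2000 and P2500) to 0.158 (Cyp17a1 in M500).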

Additional observations from a re-analysis of the deposited data

Results flagged for a closer look

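Each group of 4 or more arrays was searched for a highest or lowest array far from the rest by Dixon's test at the 95% level. Of 72 such tests over the 12 member probe sets, 7 found one, and chance gives about 1 in 20. In Star 1368406_at, P2500 replicate 05 scored 0.327 against 0.941 to 1.19 in the others, T500 replicate 04 scored 0.909 against 0.476 to 0.513, and T1800 replicate 05 scored 0.580 against 0.726 to 0.745. T500 replicate 04 was also far above the others on the second Star probe set, 0.666 against 0.326 to 0.359. In Fdx1 1368336_at, M2000 replicate 05 scored 1.51 against 1.79 to 1.90 and P500 replicate 04 scored 1.53 against 1.83 to 1.86. In Tspo, Control replicate 06 scored 0.485 against 0.689 to 0.770. P2500 05, M2000 05 and Control 06 have an actin gap above 1.4, and P500 04 has one of 1.33. The 2 triadimefon arrays have gaps of 0.758 and 0.838.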

How the results depend on the processing

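With no member past the threshold in any comparison, alternatives could only add calls. With array weights 4 members passed in P2500 against control (Star, Hsd3b1, Cyb5a and Cyp17a1), 3 in T1800 against control (Hsd17b3, Tspo and Cyp17a1) and 3 in P2500 against P500 (Hsd3b1, Cyb5a and Cyp17a1), where 2.84%, 0.850% and 2.75% of all probe sets did. Without the arrays of actin gap above 1.4, 2 passed in P2500 against control (Star and Cyb5a) and 2 in P2500 against P500 (Hsd3b1 and Cyb5a), beside 0.992% and 1.37% of all, and with the gap as a covariate 1 did in the latter (Hsd3b1; 0.0709% of all). Leaving out each array in turn gave 0 to 2 in P2500 against control and 0 to 1 in P2500 against P500. In P2500 against control 2 passed without P2500 replicate 05 (Star 0.456 and Cyb5a 0.535) and 1 without replicate 01 (Cyp17a1 0.633), and in P2500 against P500 Cyb5a passed without replicate 05 (0.486). All of these P2500 fits hold the 3 arrays with liver transcripts, and without those 3 no member passed, with only replicates 01 and 05 left in P2500. The other 234 counts stayed at 0. Of 436 values for single members, 416 kept their direction and side of the threshold, 19 became calls, and 1 changed sign: Cyb5a between the propiconazole doses, at -0.0404 without the arrays with liver transcripts.

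With the replicate number as a block (replicate block), 0 members passed in every comparison, and Cyp17a1 in T1800 differed by 0.405 (adjusted p = 0.757 in limma). Same-numbered arrays are different animals, so the numbers do not pair samples of 1 rat. Their deviations from the group means, over all probe sets, correlated with control's at -0.768 to 0.574. Arrays of large actin gap are among them, so these values do not test for a shared batch by replicate number. The weak scores of Hsd17b3 and Por, below bioB in every array, limit what can be read from them. The same holds for Star 1387174_a_at and Fdx1 1389827_at, above it in 0 arrays. Cyb5a was above bioB in 3 arrays only, those with liver transcripts. Star 1368406_at was above it in 7 arrays and Tspo in 8, so their scores are weak in most arrays too.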
